A study of Homo sapiens with 10 samples.

Results

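The 7 genes described here write, maintain or remove DNA methylation in human cells: DNMT1, UHRF1, DNMT3A, DNMT3B, TET1, TET2 and TET3. They were chosen by name, and a peak of the retinoblastoma protein (Rb) was assigned to one of them when it overlapped a promoter, defined as 2000 bp upstream to 500 bp downstream of any of the gene's GENCODE transcript starts. Of 86764 Rb peaks on the main chromosomes in 8 libraries, 53 lay at these promoters, in 10 of 22760 merged regions. A promoter peak was present in at least 1 Rb library for 6 of the 7 genes.

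The data were Rb CUT&RUN peak lists from the established cell lines OVCAR-3 and Kuramochi, both derived from high-grade serous ovarian cancer and given as wild type in the labels. Cells received either DMSO or 300 nM of INX-315, a CDK2 inhibitor, for 2 days, with 2 Rb libraries in each of the 4 groups and 1 IgG2a control library per line from DMSO-treated cells. CUT&RUN uses an antibody to bring a nuclease to a chromatin protein, so that the DNA around the protein is cut out and sequenced. The comparison of the treatments addresses whether CDK2 inhibition changes the occupancy of Rb on chromatin.

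In mammalian DNA, cytosines followed by guanine can be methylated, usually on both strands. After replication UHRF1 recognises the half-methylated site and brings DNMT1, which copies the mark to the new strand, whereas DNMT3A and DNMT3B methylate sites that carried no mark. The TET enzymes oxidise the methyl group, which opens the way to its removal. Rb holds E2F transcription factors at promoters, and cyclin-dependent kinases release it by phosphorylation. Genes used in S phase are classic E2F targets.

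The height of a peak is given as the number of fragments over its summit divided by the library's genome-wide mean number per base, which puts libraries of different depth on 1 scale. That mean was between 0.216 and 0.501 fragments per base in the 8 Rb libraries, and the libraries held 5196 to 17203 peaks on the main chromosomes, with more in every INX-315 library than in any DMSO library. The lowest called heights were between 9.51 and 13.9 times the mean. IgG2a peaks at promoters of the 7 genes numbered 0. The IgG2a lists held only 25 peaks in OVCAR-3 and 12 in Kuramochi on the main chromosomes, so this 0 says little about these genes.

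The sequences shown first are the matches to the E2F consensus within the member regions, because these matches set UHRF1 and DNMT1 apart from the other 5 genes in the letters searched. The strings searched on both strands were TTTCCCGC, TTTCGCGC, TTTGCCGC and TTTGGCGC, and each sequence is given 5′ to 3′ on the strand that carries the string, with the string in capitals (hg38). UHRF1 held 5 matches:
UHRF1, chr19:4908949-4908978, minus strand: tcccgcctcgtTTTCCCGCcttctccaggc
UHRF1, chr19:4908962-4908991, minus strand: gtttgctgtctTTTCCCGCctcgttttccc
UHRF1, chr19:4909476-4909505, minus strand: gctctgattttTTTCCCGCgaaaactcggc
UHRF1, chr19:4909714-4909743, plus strand: ctttgcaaaacTTTCCCGCgcggccagccc
UHRF1, chr19:4909973-4910002, plus strand: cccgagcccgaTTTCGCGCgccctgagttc

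The main DNMT1 promoter held 3 matches, of which the first pair overlap on opposite strands, and the region at an upstream DNMT1 start held 1:
DNMT1, chr19:10194613-10194642, plus strand: ccacggtccatTTTGGCGCcaaacagcccg
DNMT1, chr19:10194617-10194646, minus strand: tgcccgggctgTTTGGCGCcaaaatggacc
DNMT1, chr19:10194937-10194966, plus strand: gcgccccggctTTTCGCGCggaaaccgatg
DNMT1 upstream start, chr19:10231540-10231569, minus strand: gctgcgtgacgTTTCGCGCcggccggttct

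No match lay within 100 bp of the median summit of any of the 10 member regions, where 3.87% of the 16143 promoter regions held one. In windows of 400 bp UHRF1 held 2 matches and DNMT1 held 3, where 8.38% of promoter regions held at least 1. In windows of 2000 bp, UHRF1 held all 5, and 0.0186% of promoter regions held as many. DNMT1 held 3 in such a window, and 0.316% of promoter regions held as many. The share with at least 1 match in 2000 bp was 18.4%. DNMT3A, DNMT3B, TET2 and TET3 regions held 0 matches, which says only that these letters were not there. Among 35116 RefSeq promoters of 300 bases (GRCh38.p14), 3.31% held a match, and among them were 2 of the 3 listed for UHRF1 and the 1 listed for DNMT1.

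A gene was called bound in a group when both replicates had a promoter peak. In OVCAR-3 under DMSO 3 of the 7 genes were bound, DNMT1, UHRF1 and DNMT3B, and 26.8% of 19962 protein-coding genes were bound. Under INX-315 the number was 6 of 7, against 55.5% of protein-coding genes. In Kuramochi 4 of 7 were bound under DMSO, the same genes with TET3 added, against 24.9% of protein-coding genes, and 6 of 7 under INX-315, against 53.2%. A gene was gained when it was bound under INX-315 and had no promoter peak in either DMSO library of the line. DNMT3A and TET2 were gained in OVCAR-3, where 16.2% of protein-coding genes were, and TET2 was gained in Kuramochi, where 14.0% were. None of the 7 genes was lost, where 0.00501% of protein-coding genes were in OVCAR-3 and 0.0150% in Kuramochi. Such states come from 2 libraries against 2 and were not tested per gene. With equal numbers of peaks taken from each library of a line, 1 gene was gained in OVCAR-3, DNMT3A, and 0 in Kuramochi. In that setting 2.29% and 2.00% of protein-coding genes were gained. Without Kuramochi DMSO replicate 2, DNMT3A and TET2 were both gained there, which makes 2, where 27.0% of protein-coding genes were gained. TET3 was not bound under DMSO in Kuramochi, leaving 3 genes, at a q-value threshold of 0.001, with promoters cut to 1000 bp upstream and 100 bp downstream, or with equal numbers of peaks. At that q-value threshold the 1 gene gained in Kuramochi was DNMT3A and not TET2.

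DNMT1, UHRF1 and DNMT3B had a promoter peak in all 8 Rb libraries, as did 18.8% of protein-coding genes. TET1 had none, as did 31.2%.

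**Figure D1:**
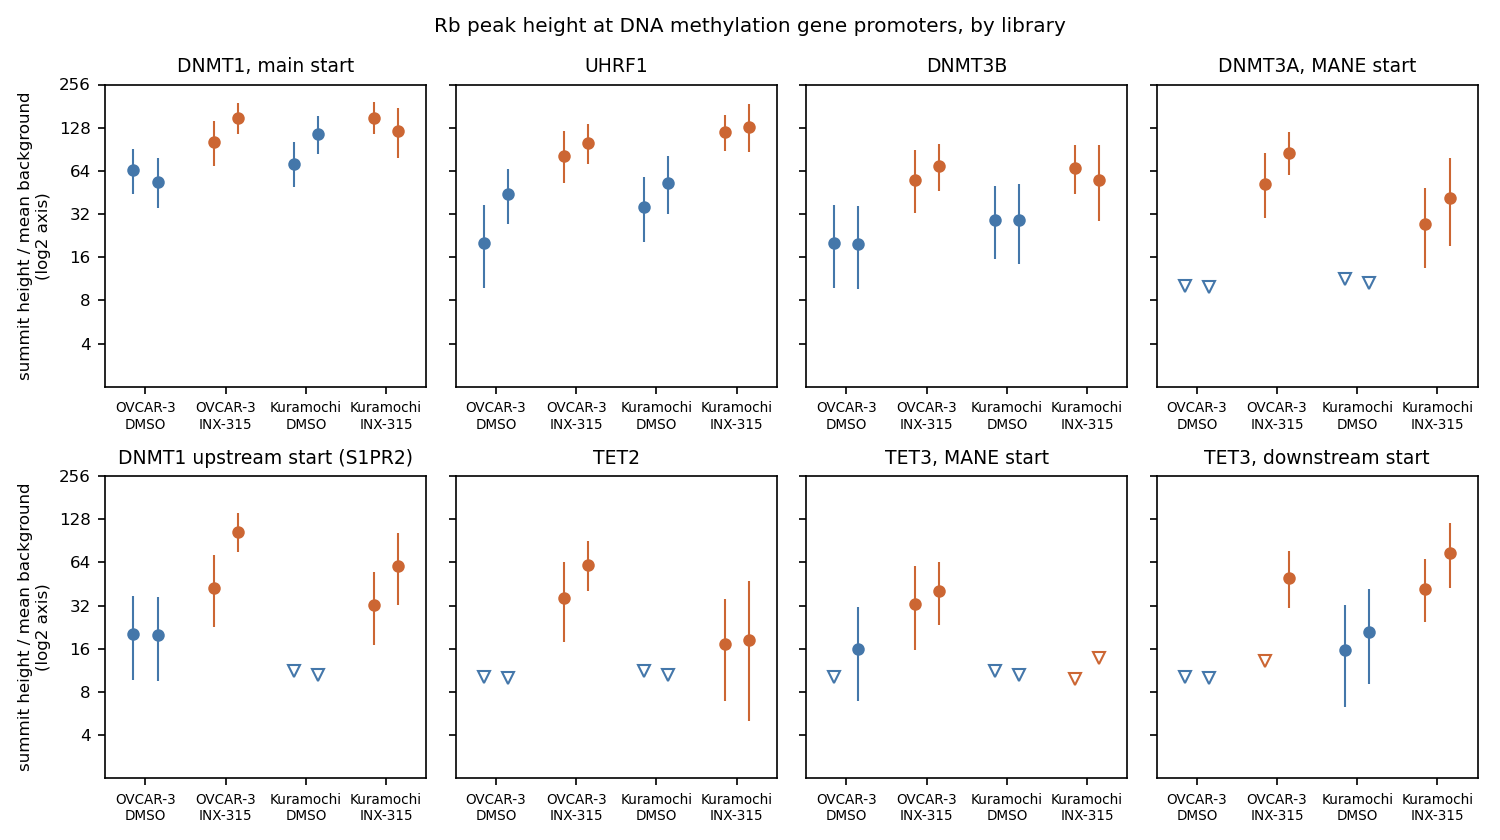
Summit height as a multiple of the library's mean background (log2 axis) for 8 member regions in each Rb library, with replicates 1 and 2 from left to right in each group. Filled points carry 95% Poisson intervals of the fragment count, and open triangles mark libraries without a peak, drawn at the lowest height called in that library. At DNMT1, UHRF1 and DNMT3B every INX-315 point lies above both DMSO points of its line.

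DNMT1, the methyltransferase that copies the mark at replication, had the highest Rb peak of the 7 genes in every library except Kuramochi INX-315 replicate 2, where UHRF1 was higher. Its main region, chr19:10193848-10195301 on hg38, spans the start of the MANE Select transcript, and the summits lay 58 to 284 bp downstream of that start. In OVCAR-3 the heights were 64.7 and 53.8 times the mean background under DMSO. Under INX-315 they were 101 and 150. In Kuramochi the DMSO libraries had 71.9 and 116, and the INX-315 libraries 151 and 120. The treated libraries lay above the DMSO libraries in both lines, but in Kuramochi the nearest heights were 116 and 120, from 44 and 26 fragments. The peak stood at the 91.0th to 97.0th percentile of heights within the DMSO lists and at the 86.2nd to 94.5th within the INX-315 lists.

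A second DNMT1 region, chr19:10230627-10231610, lies at the start of a longer DNMT1 transcript 36.2 kb upstream and is also the promoter of S1PR2, a receptor for sphingosine phosphate, and of MIR4322. Its reads cannot be assigned to either gene. Its DMSO heights in OVCAR-3 were 20.2 and 19.9, and its INX-315 heights 42.4 and 105. In Kuramochi it was called only under INX-315, at 32.1 and 60.2.

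UHRF1, the reader that brings DNMT1 to half-methylated sites, had 1 region, chr19:4908736-4910630, which spans the start of its MANE Select transcript. In OVCAR-3 the DMSO libraries had heights of 20.2 and 43.9, and the INX-315 libraries 81.6 and 99.9. In Kuramochi the DMSO libraries had 35.9 and 52.7, and the INX-315 libraries 119 and 130. Both treated libraries lay above both DMSO libraries in each line, and the OVCAR-3 DMSO replicates differed by more than those of any other group. The UHRF1 peak was 662 to 1235 bp wide under DMSO and 1023 to 1823 bp wide under INX-315, and its summits lay 51 to 501 bp downstream of the start. Counted from that start, the 5 E2F strings lay at -538, -525, -11, 227 and 486 bp. At DNMT1 the strings lay at 326, 322 and 2 bp.

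**Figure D2:**
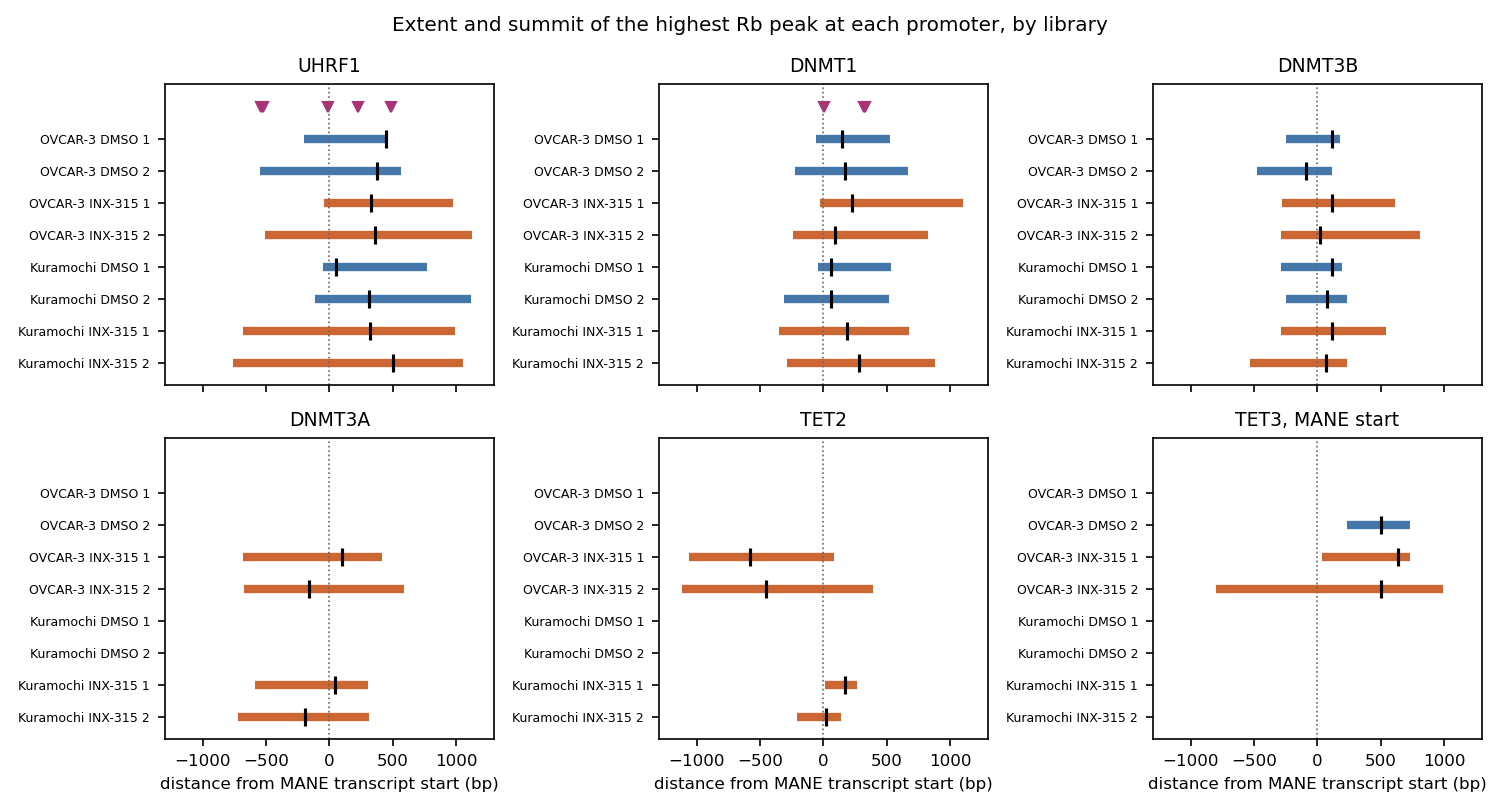
Extent (bars) and summit (black ticks) of the highest Rb peak in each library at 6 promoters, against distance in bp from the MANE Select transcript start, with the direction of transcription to the right. Blue bars are DMSO, orange bars INX-315, and purple triangles mark E2F strings. UHRF1, DNMT1 and DNMT3B have a bar in all 8 libraries, DNMT3A and TET2 only in the 4 INX-315 libraries, and this TET3 start only in OVCAR-3.

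DNMT3B, a de novo methyltransferase prominent in early embryos, was occupied in every library at chr20:32761850-32763197, with summits between -88 and 118 bp of the MANE Select start, in or near its first exon. In OVCAR-3 its heights without inhibitor were 20.2 and 19.9, and with it 55.5 and 69.0. In Kuramochi they were 29.2 and 29.0 without inhibitor, and 66.7 and 55.6 with it. The DMSO replicates were nearly equal in both lines, and every treated library lay above them. The DMSO peaks held 10 to 13 fragments at the summit, so their 95% Poisson intervals are wide, from 9.69 to 37.2 in OVCAR-3 replicate 1.

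DNMT3A, the other de novo methyltransferase, showed no peak at its MANE Select promoter in any of the 4 DMSO libraries. Under INX-315 this region, chr2:25341340-25342648, reached 52.2 and 85.6 in OVCAR-3 and 27.2 and 41.7 in Kuramochi. The lowest heights called under DMSO were 10.1 and 9.97 in OVCAR-3 and 11.2 and 10.5 in Kuramochi, below all 4 treated heights. The median of the regions with a peak in every Rb library rose by 1.78 on the log2 scale in OVCAR-3 and by 1.52 in Kuramochi. Whether Rb lay at DNMT3A below the calling limit under DMSO was not tested. An internal DNMT3A promoter 89.9 kb downstream, chr2:25251496-25252743, had low peaks, at 21.4 in 1 OVCAR-3 INX-315 library, 10.5 in 1 Kuramochi DMSO library, and 17.3 and 27.8 in the Kuramochi INX-315 libraries. The Kuramochi DMSO peak rested on 4 fragments, and because of it DNMT3A was not counted as gained in Kuramochi. Another region, chr2:25250637-25250993, had a peak in 1 Kuramochi INX-315 library at 17.3. The DNMT3A summit stretch shown here is the part of the 200 bp around the median summit of the MANE region that no annotated exon covers, read on the minus strand with each CpG in capitals. It is given to show the CpG-dense sequence at the promoter gained in OVCAR-3.
DNMT3A, chr2:25341926-25342082, minus strand: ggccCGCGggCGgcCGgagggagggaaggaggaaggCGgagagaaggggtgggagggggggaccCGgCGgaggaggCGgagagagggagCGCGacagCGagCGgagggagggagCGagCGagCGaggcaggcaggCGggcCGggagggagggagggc

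That stretch held 17 CpG in 157 bases. Over the full 200 bp the DNMT3A MANE region held 27 CpG, the DNMT3B region 30, the TET2 region 29, the UHRF1 region 25 and the main DNMT1 region 22, against a median of 18 over all promoter regions. The upstream DNMT1 region held 20, the internal DNMT3A promoter 17, and the DNMT3A region with a peak in 1 library 9.

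TET2, an oxidase often mutated in blood cancers, had peaks only under INX-315, at chr4:105145762-105147264. Heights were 35.9 and 61.8 in OVCAR-3 and 17.3 and 18.5 in Kuramochi. The Kuramochi peaks were close to the limit of calling and rested on 7 and 4 fragments, with an interval of 5.05 to 47.4 for the second, and with a q-value threshold of 0.001 TET2 was no longer bound in Kuramochi. The summits also lay apart, at -579 and -454 bp from the MANE Select start in OVCAR-3 and at 172 and 20 bp in Kuramochi.

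TET3, the oxidase that acts on the paternal genome after fertilisation, had Rb peaks at 2 starts. The region at the MANE Select start, chr2:73984106-73985902, which it shares with the antisense gene DGUOK-AS1, had a peak in 3 of 4 OVCAR-3 libraries, at 15.95 in DMSO replicate 2 and at 32.6 and 40.4 under INX-315, and in 0 of 4 Kuramochi libraries. Of all promoter regions, 1.39% had a peak in at least 3 OVCAR-3 libraries and in no Kuramochi library. The region at a start 17.9 kb downstream, chr2:74002284-74003301, had a peak in all 4 Kuramochi libraries, at 15.7 and 21.1 without inhibitor and 42.0 and 74.1 with it, and in 1 of 4 OVCAR-3 libraries, at 49.9 in INX-315 replicate 2. Of all promoter regions, 0.626% had a peak in all 4 Kuramochi libraries and in at most 1 OVCAR-3 library. These patterns were noticed in the data and were not tested. In OVCAR-3 INX-315 replicate 2 both starts had a peak, and the downstream one, at 49.9, was the higher and lay within the range of the treated Kuramochi libraries. The parts of both summit windows outside annotated exons are given on the plus strand, with CpG in capitals, to show the unlike CpG density of these starts.
TET3 MANE start, chr2:73985311-73985510: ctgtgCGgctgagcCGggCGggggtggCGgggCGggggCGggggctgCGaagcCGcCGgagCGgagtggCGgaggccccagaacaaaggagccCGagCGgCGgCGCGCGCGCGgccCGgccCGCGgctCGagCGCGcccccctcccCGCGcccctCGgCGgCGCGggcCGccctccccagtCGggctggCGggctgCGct
TET3 downstream start, chr2:74002802-74002957: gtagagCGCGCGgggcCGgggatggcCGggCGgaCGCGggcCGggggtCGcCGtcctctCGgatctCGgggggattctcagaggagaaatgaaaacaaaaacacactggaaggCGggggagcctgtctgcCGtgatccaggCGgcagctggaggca

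The TET3 MANE window held 35 CpG in 200 bp, which was at the 97.6th percentile of promoter regions, and the downstream window held 21, at the 58.9th.

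TET1, an oxidase prominent in embryonic stem cells, had no promoter peak in any of the 8 Rb libraries. The nearest Rb peak to its GENCODE start lay 32.7 kb away. RefSeq lists other TET1 starts 39.9 and 40.1 kb inside the gene, and a peak of 4 fragments, 9.51 times the mean background and the lowest height called in that library, overlapped them in OVCAR-3 INX-315 replicate 2. Peaks below the lowest called height of a library, which was 9.51 to 13.9 times the mean background, were not detectable.

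Heights were compared by treatment with limma on log2 height over 3225 regions with a peak in all 8 Rb libraries, with Benjamini-Hochberg adjustment over all of them. The 3 member regions in this set were those of UHRF1, DNMT1 and DNMT3B. In OVCAR-3, UHRF1 was 3.03-fold higher under INX-315 (log2 1.60, SE 0.43, limma adjusted p = 0.000327). DNMT3B was 3.08-fold higher (log2 1.62, SE 0.43, limma adjusted p = 0.000241). DNMT1 was 2.09-fold higher (log2 1.06, SE 0.43, limma adjusted p = 0.0141). All 3 of 3 were called higher, and so were 97.1% of all regions. In Kuramochi, UHRF1 was 2.85-fold higher (log2 1.51, SE 0.43, limma adjusted p = 0.000937) and DNMT3B 2.09-fold higher (log2 1.07, SE 0.43, limma adjusted p = 0.0156). DNMT1 did not pass, at 1.48-fold (log2 0.56, SE 0.43, limma adjusted p = 0.193). Thus 2 of 3 were called, where 92.4% of all regions were. The DNMT3B call in Kuramochi was lost without DMSO replicate 1 (log2 1.07) and without INX-315 replicate 1 (0.93) or 2 (1.20). These fits hold 1 library in 1 group, and a smaller share of all regions was called in them too. In OVCAR-3 the UHRF1 call was lost without DMSO replicate 1 (log2 1.04). That of DNMT1 was lost without DMSO replicate 2 (0.93) or INX-315 replicate 2 (0.78), again with a smaller share of all regions called. With the caller's fold enrichment in place of height, the DNMT1 call in OVCAR-3 (log2 0.71, limma adjusted p = 0.143) and the DNMT3B call in Kuramochi (log2 0.76, limma adjusted p = 0.130) were lost. In that setting 85.4% of regions were called higher in OVCAR-3 and 58.5% in Kuramochi.

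The median region rose by 1.78 on the log2 scale in OVCAR-3 and by 1.52 in Kuramochi, so the calls of the members are part of a rise at nearly all regions. The limma fit treats this shared shift as if each region showed it independently, and its p-values are therefore too small for a change of the whole library. An exact two-sided permutation test of the treatment labels within lines, with 36 arrangements, gave p = 0.0556 for each of UHRF1, DNMT1 and DNMT3B, the smallest p it can give. Both treated heights exceeded both DMSO heights in each line at all 3 regions and at 96.5% of the 3225 regions. The study gives its CUT&RUN replicates, unless it says otherwise, as separate cultures that were profiled in separate reactions.

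Relative to the median region of each library, DNMT1 was lower under INX-315 in both lines. The difference was -0.77 on the log2 scale in OVCAR-3 (SE 0.23, limma adjusted p = 0.0266) and -0.98 in Kuramochi (SE 0.23, limma adjusted p = 0.00848). Of all regions, 6.36% were called lower in this way in OVCAR-3 and 4.31% in Kuramochi. UHRF1 and DNMT3B were not called, with differences of -0.23 and -0.21 in OVCAR-3 (limma adjusted p = 0.656 and 0.751) and -0.030 and -0.48 in Kuramochi (limma adjusted p = 0.964 and 0.380). The change of DNMT1 stood at the 6.60th percentile of all regions in OVCAR-3 and at the 2.11th in Kuramochi. Classes of regions with higher DMSO height had smaller median changes. The DMSO heights enter both the class and the change, so their scatter alone lowers the change of high classes, and its share was not tested. In OVCAR-3 the regions of the 75th to 90th percentile, which include DNMT1, had a median change of 1.64 (quartiles 1.40 and 1.88). In Kuramochi those of the top 10%, which include DNMT1 there, had 1.34 (quartiles 1.06 and 1.57). The DNMT1 changes of 1.06 and 0.56 lay below the lower quartile of these classes.

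**Figure D3:**
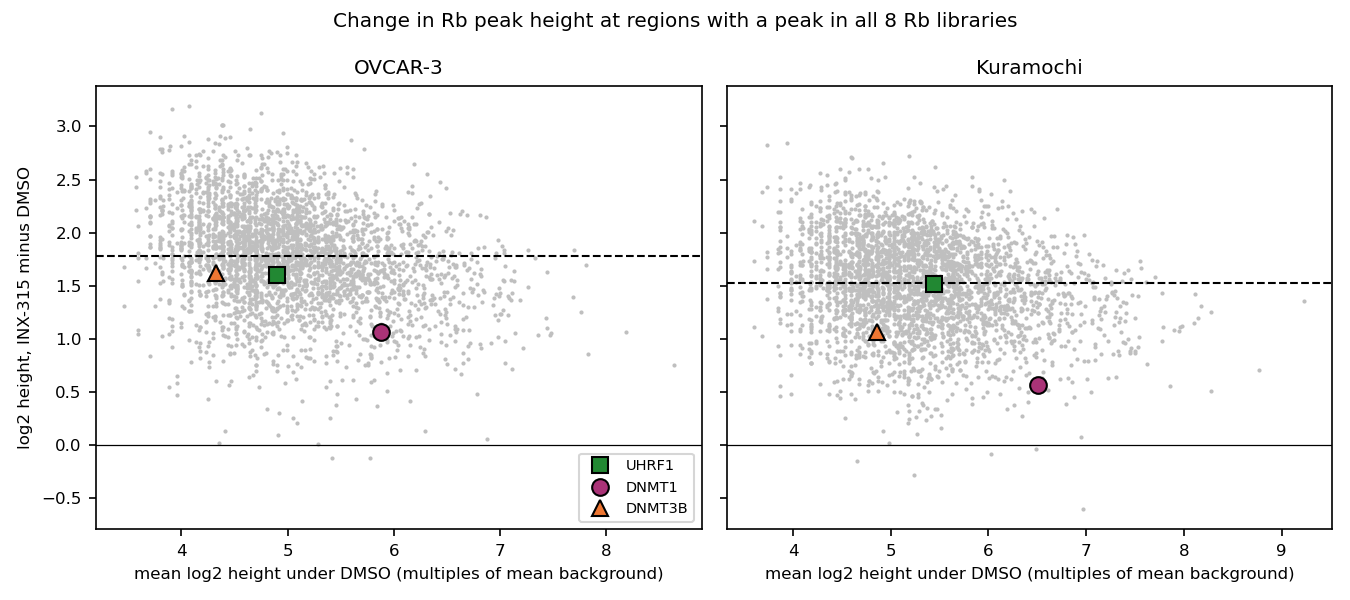
Change in log2 height from DMSO to INX-315 against mean log2 height under DMSO for 3225 regions (grey), with UHRF1, DNMT1 and DNMT3B marked and the median change as a dashed line. DNMT1 lies below the dashed line in both lines (changes of 1.06 and 0.56), whereas UHRF1 lies near it.

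The treatment effect was compared between the lines by the interaction term of the same fit, as Kuramochi minus OVCAR-3. It was -0.09 for UHRF1 (95% interval -1.29 to 1.11), -0.50 for DNMT1 (-1.68 to 0.69) and -0.56 for DNMT3B (-1.75 to 0.63), each with a limma adjusted p of 0.998. Among 3225 regions, whose median for this term was -0.26, limma called 0, and 91 had an unadjusted p under 0.05. These intervals leave room for effects that differ by more than 2-fold between the lines.

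The median region was higher in Kuramochi than in OVCAR-3 by 0.28 on the log2 scale under DMSO and by 0.013 under INX-315. Under DMSO the member heights were 1.46-fold higher in Kuramochi than in OVCAR-3 at UHRF1, 1.55-fold at DNMT1 and 1.45-fold at DNMT3B. None passed (limma adjusted p = 0.485, 0.396 and 0.492), where 6.79% of regions differed. Under INX-315 the ratios were 1.37, 1.09 and 0.984 (limma adjusted p = 0.569, 0.897 and 0.986), where 7.04% differed. The log2 intervals under DMSO ran from -0.30 to 1.40 for UHRF1, from -0.21 to 1.47 for DNMT1 and from -0.31 to 1.38 for DNMT3B. Heights were also divided by the local background in place of the library's mean. In the same order, the ratios under DMSO were then 1.61, 1.37 and 0.904 (limma adjusted p = 0.3945, 0.576 and 0.890). Those under INX-315 were 1.97, 0.878 and 0.653 (limma adjusted p = 0.185, 0.847 and 0.467). The direction at DNMT3B under DMSO and at DNMT1 under INX-315 thus depended on the background used.

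A fit of each line alone admits regions without a peak in the other line. It placed the downstream TET3 start 3.06-fold higher under INX-315 in Kuramochi (log2 1.62, SE 0.41, limma adjusted p = 0.000289) and the DNMT1 region shared with S1PR2 3.32-fold higher in OVCAR-3 (log2 1.73, SE 0.46, limma adjusted p = 0.000312). DNMT3A, TET2 and the TET3 MANE start lacked a peak in at least 1 library of each line and could not be fitted.

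Under INX-315 in OVCAR-3, DNMT1 came first at 125 ± 34.4 (SD, n = 2 for this and the following values), then UHRF1 at 90.7 ± 12.9, DNMT3A at 68.9 ± 23.6, DNMT3B at 62.2 ± 9.54, TET2 at 48.9 ± 18.3 and the TET3 MANE start at 36.5 ± 5.51. The replicates of neighbours in this order overlapped, except those of DNMT1 and UHRF1, whose means differed by about the SD of DNMT1. In Kuramochi under INX-315, DNMT1 was at 136 ± 21.4, UHRF1 at 124 ± 7.87, DNMT3B at 61.1 ± 7.85, the downstream TET3 start at 58.0 ± 22.7, DNMT3A at 34.4 ± 10.3 and TET2 at 17.9 ± 0.875. DNMT1 overlapped UHRF1, and DNMT3B overlapped TET3. UHRF1 stood clear of DNMT3B, the higher DNMT3A replicate (41.7) lay just under the lower TET3 replicate (42.0), and TET2 lay below all of them. Height at the summit is a count per base and does not depend on gene length.

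The promoter regions most like each member in log2 height over the 8 libraries were found by Euclidean distance among 3143 regions. Nearest to UHRF1 were the regions of C1orf122 with YRDC (distance 0.379), PPIE (0.414) and EMP3 with ODAD1 (0.431), where the median region was 1.98 away. Nearest to DNMT1 were PROCA1 (0.392), MDH1 with WDPCP (0.719) and GAPDH (0.738), against a median of 2.88. Nearest to DNMT3B were SMC5 (0.527), GTF3C5 (0.570) and TMEM230 (0.607), against a median of 2.36. UHRF1 and DNMT1 were 2.40 apart.

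A list of 33 other genes of the pathway was examined by role. In OVCAR-3, DMSO libraries had 20 of the 33 bound, INX-315 libraries 29, and 3 were gained, against 26.8%, 55.5% and 16.2% of all protein-coding genes. In Kuramochi the numbers were 16, 28 and 7, against 24.9%, 53.2% and 14.0%. The list had 15 genes with a peak in all 8 libraries and 2 with none. By the strongest promoter peak per gene, 15 of the 33 could be fitted by limma. In OVCAR-3, 14 were higher and 0 lower, with a median log2 difference of 1.57, where 97.7% of 3719 genes were higher, with a median of 1.78. In Kuramochi 15 were higher and 0 lower, with a median of 1.54, where 93.1% of genes were higher, with a median of 1.51.

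Among the homologues, UHRF2, a relative of UHRF1, was occupied in all 8 libraries, with heights of 24.7 to 59.8 under DMSO and 98.8 to 193 under INX-315. TRDMT1, which methylates transfer RNA, had peaks only under INX-315 and was gained in both lines, at 26.1 and 64.2 in OVCAR-3 and 19.8 and 50.9 in Kuramochi. DNMT3L, a catalytically inactive partner of the de novo enzymes, had no peak.

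Of the 7 maintenance partners, 5 were bound under DMSO in each line. LIG1, the ligase that joins Okazaki fragments, was among the highest peaks of every library, at 135 to 221 under DMSO and 333 to 574 under INX-315. PCNA, the replication clamp, was at 101 to 224 under DMSO and 234.6 to 371 under INX-315. Both stood far above DNMT1, with LIG1 between the 99.46th and 99.94th percentile of heights in the 8 lists. USP7, a deubiquitinase that binds DNMT1 and UHRF1, was gained in both lines, at 19.6 and 28.5 in OVCAR-3 and 44.5 and 27.8 in Kuramochi. DMAP1, a DNMT1-associated protein, had a peak in 3 INX-315 libraries, at 23.2 to 44.5, and came last of the role by mean percentile under INX-315, in which the library without a peak counts as 0.

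Of the 8 methyl-CpG readers, 7 were bound under DMSO in OVCAR-3 and 3 in Kuramochi. MBD4, a glycosylase that repairs mismatches at methylated sites, came first by mean percentile under INX-315, at 42.7 to 77.8 under DMSO and 127 to 250 under INX-315. MBD1, a transcriptional repressor, had peaks at 30.3 and 25.9 under DMSO in OVCAR-3, none under DMSO in Kuramochi, and 88.1 to 162 under INX-315. MBD2, another repressor, and ZBTB38, a zinc finger reader, came last by that measure, with maxima of 61.8 and 38.0.

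Of the 8 genes of demethylation and repair, 2 were bound under DMSO in each line, GADD45A and CXXC5. GADD45A, a stress-induced factor linked to active demethylation, was at 21.9 to 42.1 under DMSO and 78.3 to 153 under INX-315. CXXC5, a CpG-binding protein, was at 18.2 to 52.7 and 78.3 to 136. GADD45B, a relative of GADD45A, had a peak in 1 library of each line, at 14.3 and 19.8, and CXXC4, a relative of CXXC5, had none.

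Of the 7 genes that supply the methyl donor or oxoglutarate, 5 were bound under DMSO in each line and 7 under INX-315. By mean percentile under INX-315 MTR, methionine synthase, came first, at 26.3 to 50.03 under DMSO and 140 to 204 under INX-315, and MAT2A, which makes S-adenosylmethionine, came next, at 20.2 to 65.8 and 123 to 212, above MTR in both OVCAR-3 INX-315 libraries. IDH2, the mitochondrial isocitrate dehydrogenase, was the lowest by mean rank, at 42.4 to 83.4 under INX-315.

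**Figure D4:**
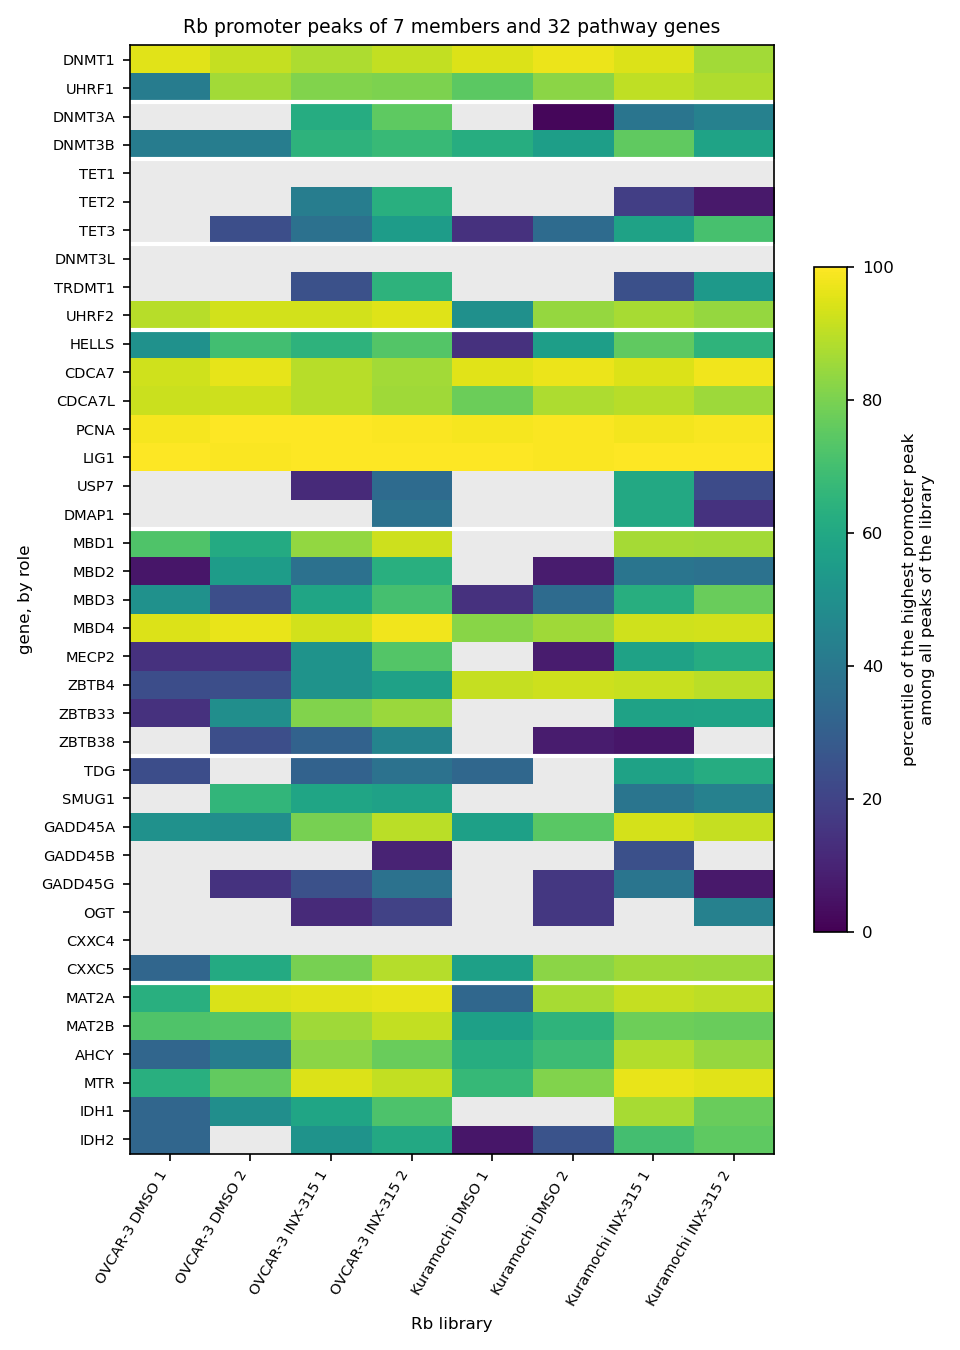
Percentile of the highest promoter peak of each gene among all peaks of the library, for the 7 members (top rows) and 32 pathway genes in their roles, with white lines between roles and grey where no promoter peak was called. LIG1 and PCNA are near the top of all 8 lists, TET1, DNMT3L and CXXC4 are grey throughout, and TET2, TRDMT1 and USP7 are grey in all DMSO libraries.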

How the data were processed

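Per the labels and the study's methods, the authors aligned reads to hg38 with Bowtie2 2.3.4.1 and called peaks in each Rb library separately with MACS2 2.2.7.1 against IgG, at a q-value of 0.05. The deposited lists give positions, a fold enrichment and −log10 p-values and q-values. The fold fitted a ratio of summit to local background after the same constant was added to both. It is therefore smaller than the plain ratio, at 22.1 against a height of 64.7 for DNMT1 in OVCAR-3 DMSO replicate 1. The score that the authors' caller wrote for each deposited peak, made from its q-value, was not used. From the deposited fold and p-value, whole fragments at the summit and the local background were solved (relative tolerance 3e-05), which gave a single whole number for at least 98.8% of Rb peaks in each library, whereas half-fragments fitted at most 0.307% of them. Heights are fragments divided by the library's mean background. No reads were used, and no spike-in scaling was applied.

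Overlapping peaks (at least 1 bp) of the 8 Rb libraries were merged into regions. Promoters came from GENCODE release 44 (252835 transcript starts). On all 23 main chromosomes the last Rb peak lay inside the hg38 reference, which by itself does not prove the assembly. Members and gene lists were chosen with earlier results of these data known. The 7 members are all named. For the pathway list the rule named every gene of roles with up to 3 genes, the 2 highest and 2 lowest genes of larger roles by mean rank under INX-315, and genes gained in both lines. 1 gene of the list is counted but not reported here by name. The 3 nearest regions were named for each fitted member. Log2 heights were fitted with limma 3.58.1 (R 4.3.3; line, treatment and interaction, intensity trend). The fit was also run on simulated data in which most regions did not change. That run cannot show how the fit behaves when nearly all regions shift. A differential test on read counts, as in the study, was not made, since the lists hold no counts per region. Sequences came from the hg38 reference and RefSeq (GRCh38.p14). Intervals on heights are exact 95% Poisson intervals and cover counting error only, since PCR copies are not independent molecules. The main alternatives are named under the dependence on processing, which does not list every setting tried. Others included a summit within the promoter, a peak in at least 1 replicate, a fit without the intensity trend and heights over the local background. The permutation test, the 2000-bp windows, the classes of DMSO height and the TET3 counts were added after the data were seen.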

Additional observations from a re-analysis of the deposited data

How the results depend on the processing

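Counts of bound or gained genes moved by more than 1.5 times under a few settings. With equal numbers of peaks per library, OVCAR-3 gained 1 gene, against 2.29% of protein-coding genes. Its genes bound under INX-315 then numbered 4 (DNMT1, UHRF1, DNMT3A and DNMT3B) and not 6, against 28.9%, a move that did not exceed that factor. Kuramochi had 2 bound under INX-315 (DNMT1 and UHRF1) and gained 0, against 24.9% and 2.00%. With promoters of 1000 bp upstream to 100 bp downstream, Kuramochi gained 2, against 13.9%. Leaving out 1 library at a time gave 1 to 2 gained genes in Kuramochi and 2 to 3 in OVCAR-3. The 2 in Kuramochi came without DMSO replicate 2, whose peak of 4 fragments lies at the internal DNMT3A promoter, against 27.0%. The 3 in OVCAR-3 came without DMSO replicate 2, which has the only DMSO peak of TET3 there, against 25.8%. The limma calls of members numbered 3 in OVCAR-3 and 2 in Kuramochi. Centred on the median region they numbered 1 and 1, which was DNMT1 in each line, called lower and not higher. The sign turned for UHRF1 (-0.23 and -0.030), DNMT1 (-0.77 and -0.98) and DNMT3B (-0.21 and -0.48), since each rose less than the median region. With the caller's fold enrichment the calls of members numbered 2 and 1, where 85.4% and 58.5% of all regions were called higher. DNMT1 in OVCAR-3 (0.71, limma adjusted p = 0.143) and DNMT3B in Kuramochi (0.76, limma adjusted p = 0.130) did not pass, and the cause was not tested. Leave-one-out fits hold 1 library in 1 group. UHRF1 in OVCAR-3 was not called without DMSO replicate 1 (1.04), nor DNMT1 there without DMSO replicate 2 (0.93) or INX-315 replicate 2 (0.78). DNMT3B in Kuramochi was not called without DMSO replicate 1 (1.07) or INX-315 replicate 1 (0.93) or 2 (1.20). A smaller share of all regions was called in these fits too. In the fit with the replicate block the calls were again 3 and 2, where 98.7% and 96.0% of all regions were called higher. Its standard errors were smaller, at 0.34 against 0.43 for UHRF1. Over the regions, the deviations of same-numbered libraries correlated at -0.046 in OVCAR-3 and -0.011 in Kuramochi. This correlation leaves out any shift of a whole library, so it cannot show whether the replicate numbers pair the samples. The block left 0 member calls for the interaction and for the lines. E2F strings lay in 0 member regions in windows of 200 bp, in 2 in windows of 400 bp and in 3 in windows of 2000 bp. Depth limits the low peaks: those of TET2 in Kuramochi, the internal DNMT3A promoter and the RefSeq TET1 starts rest on 4 to 9 fragments.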
